A study of Mus musculus with 8 samples.

Results

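The genes described here encode acute-phase proteins, which tissues release during inflammation: Lcn2, Saa3, Hp, Cp, Ptx3 and Orm1, together with Il6, the cytokine best known for inducing them. Their 7 symbols were looked up among the probe sets that name a single gene, which found 15 probe sets, and each of the 7 of 18193 genes on the array was read from its brightest probe set, with the others as a check. RNA came from whole tumours of B16F1, a mouse melanoma cell line, raised subcutaneously in a hind limb of mice that were 8 to 12 weeks old at the outset. There were 4 groups: TNFR1,2 -/- hosts (TNFR KO) given a single dose of 20 Gy of X-rays, TNFR KO hosts left untreated, wild-type C57BL/6 hosts (WT) given 20 Gy, and WT hosts left untreated. Tumours were excised 5 h after treatment. The TNFR KO mice carried targeted alleles of both TNF receptor genes, Tnfrsf1a and Tnfrsf1b, and came from B6;129S breeding pairs, although the labels give their strain as C57BL/6, whereas the WT mice were C57BL/6-NCr from another supplier. The injected tumour cells were the same in every group and were not altered at these genes. Between 5 and 7 mice of each host were injected, tumours of a group were pooled as RNA, and every pool was hybridised to 2 Affymetrix mouse arrays, so a pair of values below comes from duplicate arrays of the same RNA and not animals.

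In the acute-phase response, TNF, IL-1 and IL-6 act through the transcription factors NF-kB, C/EBP and STAT3 to raise the output of a set of secreted proteins, mainly by the liver but also by macrophages, neutrophils, fat and epithelium in inflamed tissue. Several of these proteins handle iron or haem, which withholds them from bacteria and limits oxidative damage. Others opsonise microbes or attract leukocytes. Il6 is itself induced by TNF in many cell types.

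The arrays set limits on what can be read between hosts. The signal is MAS5 intensity, with the same trimmed mean on every array as deposited, and duplicate arrays correlated at 0.975 to 0.981 (Pearson, log2 scale, across probe sets), against 0.953 to 0.972 for arrays of different pools. The transcript of the targeted gene Tnfrsf1a read 4053 to 4340 and 3279 to 3539 in the irradiated and untreated TNFR KO pools, against 3816 to 3933 and 2653 to 2752 in the irradiated and untreated WT pools. Tumour cells carry intact receptor genes in every group, and whether the probe set lies in the deleted part is not known here. Tnfrsf1b read 108 to 147 and 127.3 to 127.6 against 380.3 to 451 and 158 to 225, in the same order. Poly-A transcripts added before labelling (dap, lys, phe and thr) averaged between 14.5 and 17.3 on the TNFR KO arrays and between 3887 and 17421 on the WT arrays, so host and sample preparation cannot be told apart in any host difference below. Within WT the irradiated arrays also read higher than the untreated ones for these controls, as for dap at 22058 against 12784. Probe sets of 18S ribosomal RNA averaged 944 and 529 in irradiated and untreated TNFR KO pools, against 340.0 and 293 in irradiated and untreated WT pools. The part of these differences in the results was not tested. Melanocyte markers summed to between 144990 and 180806 on every array, with all 7 listed markers above the level for testing. Of these, limma called 1 lower in TNFR KO hosts, the transcription factor gene Mitf (-0.89 ± 0.17, adjusted p = 0.00363), a small share of the summed signal, and 0 higher. Among all tested genes, 18.8% were called lower and 11.8% higher.

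Lcn2 encodes lipocalin 2, which binds bacterial siderophores and so withholds iron. It is stored in neutrophil granules and is induced in macrophages, fat and epithelium. Its gene lies on chromosome 2 at 32384637 to 32387739 (GRCm38.p6), and the single probe set 1427747_a_at reads it. Lcn2 read 122 and 87.5 on the irradiated TNFR KO arrays and 206 and 254 on the untreated TNFR KO arrays, against 4535 and 4334 on the irradiated WT arrays and 1696 and 1681 on the untreated WT arrays. No pools overlapped, and the order was irradiated WT, untreated WT, untreated TNFR KO and irradiated TNFR KO. The TNFR KO level over both treatments was 16.1-fold lower (difference -4.01 ± 0.41 SE; limma on the 4 pool means, adjusted p = 0.000341), the lowest difference of all 11345 genes tested. Within each treatment it again ranked lowest of all, 6.97-fold lower untreated and 37.2-fold lower irradiated. In bulk tissue, fewer cells of a type and less RNA per cell cannot be told apart. Of 18 alternative settings, 17 kept the call, and the one without a filter on low signals did not (limma, adjusted p = 0.0628). All of these settings used the same 4 pools, and the fits on 8 arrays counted duplicates of the same RNA separately.

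**Figure D1:**
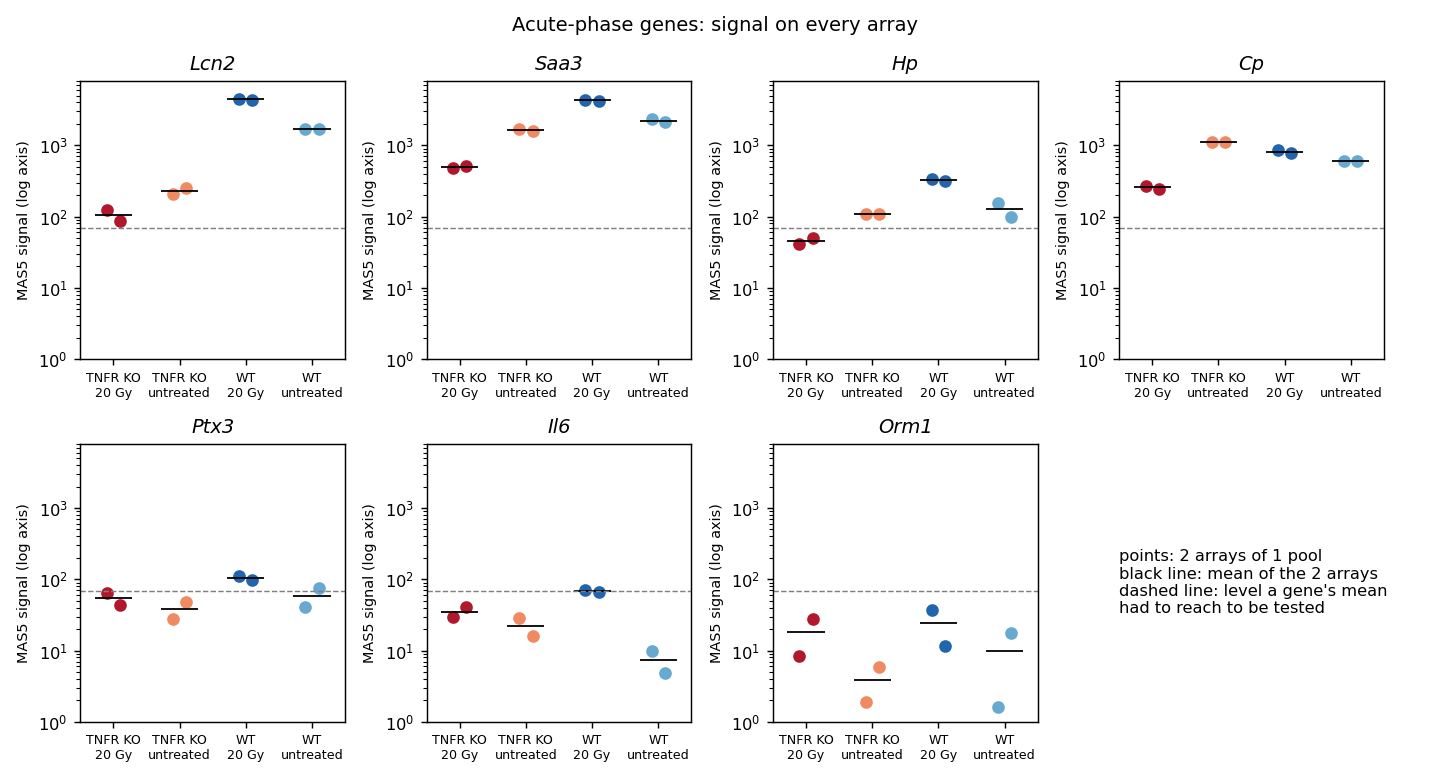
MAS5 signal (log axis) of the 7 acute-phase genes on the 8 arrays. Points are the 2 arrays of each pool, black lines their mean, and the dashed line is the signal (68.8) that corresponds to the mean level a gene had to reach to be tested. Lcn2, Saa3 and Hp are highest in irradiated WT and lowest in irradiated TNFR KO tumours, and Ptx3, Il6 and Orm1 lie near or below the dashed line.

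Saa3 encodes serum amyloid A3, the form made outside the liver in mouse, by macrophages and fat among others. It was read by probe set 1450826_a_at (chromosome 7, 46711998 to 46719615). Saa3 read 485 and 519 in irradiated and 1698 and 1571 in untreated TNFR KO tumours, against 4355 and 4195 in irradiated and 2312 and 2103 in untreated WT tumours. The pools followed the same order as for Lcn2, without overlap, but the untreated hosts lay close together. The host difference over both treatments was -1.74 ± 0.44 (3.34-fold lower; limma, adjusted p = 0.0158). It was -0.43 between untreated pools (1.35-fold lower) and -3.05 between irradiated pools (8.29-fold lower). The call over both treatments ended with quantile normalization (-1.68), with no filter (-1.74) and without any 1 array other than the second irradiated WT array (-1.77 to -1.71).

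Hp encodes haptoglobin, which binds free haemoglobin. It was read by probe set 1448881_at (chromosome 8, 109575128 to 109579172). Hp read 40.9 and 50.6 in irradiated and 109 and 110.4 in untreated TNFR KO tumours, against 340.5 and 319 in irradiated and 158 and 97.5 in untreated WT tumours. The untreated hosts overlapped, and irradiated WT stood above and irradiated TNFR KO below every other array. In the irradiated TNFR KO pool Hp was under the level set for testing, which it passed on its mean over all arrays. The host difference in Hp was -0.16 between untreated pools (1.12-fold lower) and -2.49 between irradiated pools (5.61-fold lower). Averaged over treatments, Hp was 2.50-fold lower with TNFR KO hosts (-1.32 ± 0.40; limma, adjusted p = 0.0322). That call ended without any 1 of the 8 arrays (-1.48 to -1.17), with quantile normalization (-1.37), with no pseudocount (-1.52), with no filter (-1.32) and with the 8 arrays fitted with a replicate block (-1.32, adjusted p = 0.0547).

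Cp encodes ceruloplasmin, the copper-carrying ferroxidase that helps iron leave cells, made by liver, macrophages and other tissues. Its brightest probe set, 1417494_a_at (chromosome 3, 19956933 to 20009750), read 268 and 245 in irradiated and 1115 and 1116 in untreated TNFR KO tumours, against 848 and 787 in irradiated and 599.0 and 598.6 in untreated WT tumours. Cp therefore had another order: untreated TNFR KO was highest, then irradiated WT, untreated WT and irradiated TNFR KO, with no overlap between neighbours. The host difference over both treatments did not pass (-0.37 ± 0.43; limma, adjusted p = 0.529), since the untreated difference was 0.88 and the irradiated one -1.61. Of 8 probe sets of Cp, 5 reached the level for testing. The 4 others of these were all lower in irradiated TNFR KO than in untreated TNFR KO tumours (-1.75 to -1.20) and all higher in irradiated than in untreated WT tumours (0.36 to 0.75). They were also all lower in irradiated TNFR KO than in irradiated WT tumours (-2.03 to -1.09). Between untreated pools they spread over -0.17 to 1.02, with 3 higher and 1 lower in TNFR KO, so the untreated host difference depended on the probe set. The 3 dim probe sets read 0.5 to 30.0 and carry no order.

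**Figure D2:**
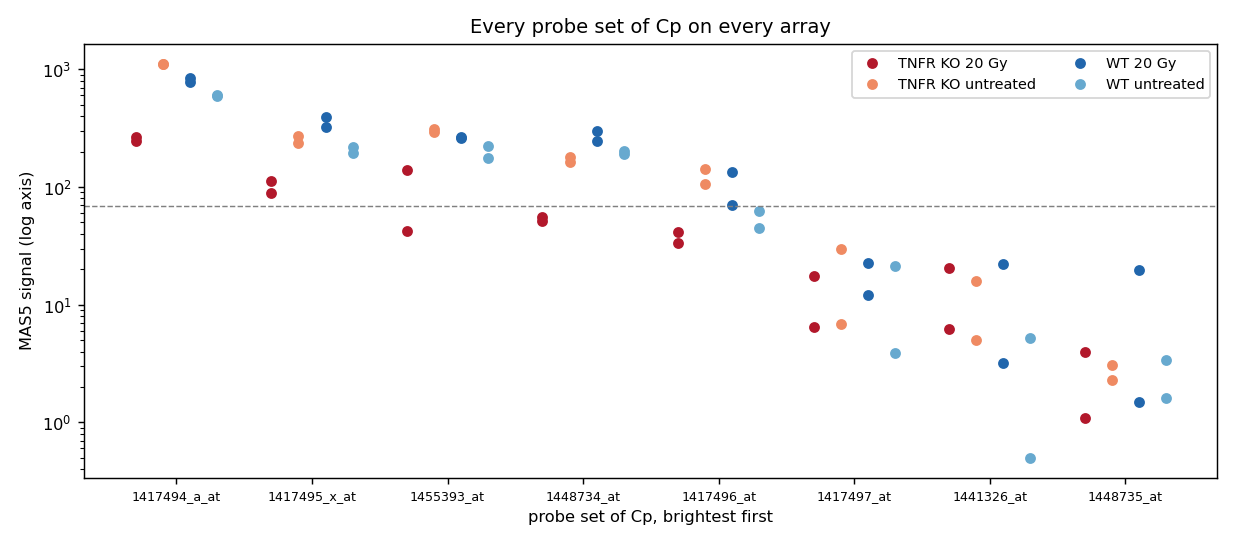
MAS5 signal (log axis) of every Cp probe set on the 8 arrays, brightest probe set first, with points coloured by group and a dashed line at the signal of 68.8. In the 5 brighter probe sets the irradiated TNFR KO arrays lie below the untreated TNFR KO arrays, while the 3 dimmest probe sets show no such separation.

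The other members were dim. Ptx3 encodes pentraxin 3, a pattern recognition protein made locally by macrophages, endothelium and fibroblasts. It read 64.5 and 43.2 in irradiated and 27.3 and 48.3 in untreated TNFR KO tumours, against 110.5 and 96.5 in irradiated and 41.3 and 75.5 in untreated WT tumours. Only irradiated WT stood clear of the other pools, and the dimmer probe set of Ptx3, at 3.6 to 48.5, did not show this order. Il6 read 29.3 and 41.1 in irradiated and 28.2 and 16.1 in untreated TNFR KO tumours, against 70.2 and 66.7 in irradiated and 9.8 and 4.8 in untreated WT tumours. Irradiated WT was again highest and untreated WT lowest, but neighbours among the lower pools differed little. Orm1, which encodes the plasma lipocalin orosomucoid 1, read 8.3 and 27.7 in irradiated and 1.9 and 5.8 in untreated TNFR KO tumours, against 36.7 and 11.5 in irradiated and 1.6 and 17.8 in untreated WT tumours. Every neighbouring pair of pools overlapped for Orm1. These 3 genes were below the level for testing, so 4 of the 7 members entered the fit.

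Of these 4, 3 were called lower in TNFR KO hosts over both treatments and 0 higher, against 18.8% of all tested genes called lower and 11.8% higher by limma. Their median host difference was -1.53, against 0.085 for all tested genes. The members were chosen with earlier results of these data known, so the shares here and below describe them and do not test them as a set. With 1 pool on each side, the other comparisons have no test. There, a gene was counted when it differed at least 2-fold on the log2(signal + 16) scale without overlap of duplicate arrays. Between untreated pools 1 of 4 was counted lower in TNFR KO, Lcn2, against 6.46% of all genes, and 0 higher, against 2.26%. Between irradiated pools 4 of 4 were counted lower, against 7.7% of all genes, and 0 higher, against 0.987%. Their median was -0.29 untreated and -2.77 irradiated, against 0.077 and 0.062 for all tested genes.

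The radiation comparison within each host ran in opposite directions. In TNFR KO hosts 4 of 4 members were counted lower after 20 Gy, against 0.617% of all genes, with log2 differences of -2.05 (Cp), -1.67 (Saa3), -1.03 (Lcn2) and -1.03 (Hp). None of the 4 was counted higher, against 1.08% of all genes. The Cp value is that of its brightest probe set, sixth from the bottom among all tested genes, and with the mean of its probe sets it was -0.99, short of 2-fold. Lcn2 and Hp were near the threshold: Lcn2 gave -0.89 without the second untreated and -0.82 without the second irradiated TNFR KO array, and Hp gave -0.92 without the first irradiated TNFR KO array, each of which left 3 of 4 counted. With 64 as the pseudocount, which flattens dim genes, 2 of the 4 were past 2-fold. In WT hosts 2 of 4 were counted higher, Lcn2 at 2.61-fold and Hp at 2.46-fold, against 2.57% of all genes, and 0 lower, against 0.264%. Saa3 read 1.93-fold higher (0.95) and Cp 1.36-fold higher (0.44), short of 2-fold. Without the second untreated WT array the Hp difference was 0.99 and 1 of 4 was counted. Centring each array on its median lowered every WT radiation difference by about 0.26, and the 4 members still read higher, from 0.18 for Cp to 1.13 for Lcn2. Over both hosts these differences offset each other, and limma on the pool means called 0 of 4 in either direction, against 0.264% of all genes called lower and 1.29% higher. At an unadjusted p under 0.05 the count was also 0 of 4, against 16.6% of all genes. Cp (-0.81, adjusted p = 0.381 by limma) was called lower over both hosts with median centring (adjusted p = 0.00494), with a filter at the 75th percentile (0.000174) and with limma's trend (0.000113). These calls average a fall in TNFR KO hosts (-2.05) and a smaller rise in WT hosts (0.44), so they do not show a fall in both. With median centring all 4 members had the same standard error (0.236), so each gene's own residual did not enter.

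**Figure D3:**
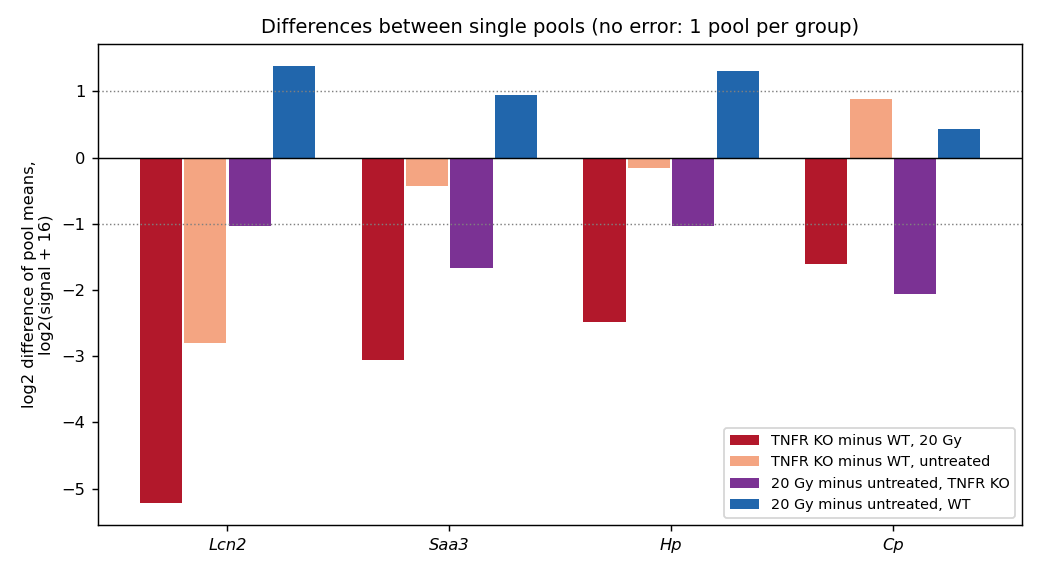
Log2 differences of pool means for the 4 tested acute-phase genes in the 4 comparisons between single pools, with dotted lines at 2-fold. Each bar has 1 pool on either side and so carries no error. The bars for 20 Gy in TNFR KO hosts point down and those for 20 Gy in WT hosts point up for each of the 4 genes.

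Taking the WT radiation difference from that in TNFR KO hosts gave -2.62 for Saa3, -2.49 for Cp, -2.42 for Lcn2 and -2.33 for Hp. Cp gave -1.49 with the mean of its probe sets, and Hp gave -1.72 with a pseudocount of 64. All 4 were past 2-fold in this measure, against 3.05% of all genes lower and 0.582% higher, and they ranked 8, 13, 18 and 23 from the bottom among the 11345 genes. Since the members were chosen with earlier results of these data known, these ranks are descriptive only. All 4 also differed without overlap of duplicates in opposite directions in the hosts, a pattern of any size shown by 6.83% of all genes, where the reverse was shown by 6.18%. At 2-fold or more in each host the pattern was shown by 0.097% of all genes, 11 in number, among them Lcn2 and Hp. Without any 1 array the values ranged over -2.63 to -2.21 for Lcn2, -2.69 to -2.55 for Saa3, -2.64 to -2.02 for Hp and -2.56 to -2.43 for Cp.

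**Figure D4:**
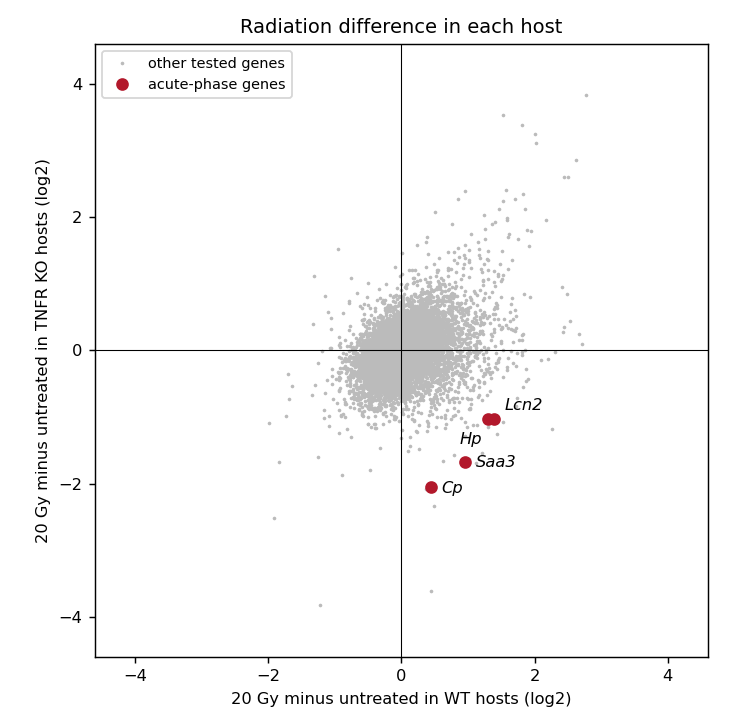
Radiation difference (log2, 20 Gy minus untreated) in WT hosts on the horizontal axis and in TNFR KO hosts on the vertical axis, for the 11345 tested genes (grey) and the 4 tested acute-phase genes (red). The 4 genes lie in the lower right, higher in WT and lower in TNFR KO tumours after irradiation.

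The stretches before the genes' start sites are given because the 4 tested genes were all higher after irradiation in WT and all lower in TNFR KO tumours. RefSeq (GRCm38.p6) promoter windows of 250 bases before and 50 after the start were matched for 5 of the 7 members, Lcn2, Saa3, Cp, Ptx3 and Il6. No window was available for Hp, which is among the 4 tested genes, or for Orm1. Ptx3 and Il6 were below the level for testing. Capitals mark matches, on either strand, to a C/EBP motif (TTNNGNAA), a STAT motif (TTCNNNGAA, also with 1 more N), the NF-kB consensus and a TATA motif (TATAAA). The windows of Lcn2 (chr2:32387690-32387989, minus strand), Saa3 (chr7:46715627-46715926, minus strand) and Cp (chr3:19956999-19957298, plus strand), 5′ to 3′ along the gene, are given below. RefSeq's start for Saa3 lies 3939 bases inside the span of the gene given above, and that for this window of Cp 316 bases inside, so these windows do not adjoin the outer end of the annotated gene, whereas that of Lcn2 does.
Lcn2: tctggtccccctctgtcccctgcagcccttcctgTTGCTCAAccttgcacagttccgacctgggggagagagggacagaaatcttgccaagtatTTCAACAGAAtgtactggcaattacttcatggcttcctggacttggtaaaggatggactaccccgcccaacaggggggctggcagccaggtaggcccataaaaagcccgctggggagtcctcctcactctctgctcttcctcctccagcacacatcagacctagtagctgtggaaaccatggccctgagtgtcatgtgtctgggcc
Saa3: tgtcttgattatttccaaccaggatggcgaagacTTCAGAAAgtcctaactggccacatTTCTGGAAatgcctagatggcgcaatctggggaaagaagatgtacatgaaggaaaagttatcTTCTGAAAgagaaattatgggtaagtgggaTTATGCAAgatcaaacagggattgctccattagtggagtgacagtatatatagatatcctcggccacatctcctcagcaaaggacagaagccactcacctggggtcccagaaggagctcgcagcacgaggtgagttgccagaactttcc
Cp: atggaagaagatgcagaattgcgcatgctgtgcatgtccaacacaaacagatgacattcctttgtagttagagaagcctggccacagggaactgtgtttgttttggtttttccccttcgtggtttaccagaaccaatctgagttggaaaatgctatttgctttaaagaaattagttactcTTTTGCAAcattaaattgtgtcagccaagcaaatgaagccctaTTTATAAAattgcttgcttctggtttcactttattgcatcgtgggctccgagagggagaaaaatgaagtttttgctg
Lcn2 held 1 C/EBP match 216 bases before the start and 1 STAT match 156 bases before it. Saa3 held 4 C/EBP matches, at 216, 191, 129 and 99 bases before the start. Cp held 1 C/EBP match at 70 bases and a pair of overlapping TATA matches on opposite strands at 25 and 27 bases, and its other annotated window held a C/EBP match at 206 bases. Il6 held a C/EBP match at 128 bases and an NF-kB match at 44 bases before the start, and Ptx3 held a C/EBP match at 57 bases and overlapping NF-kB matches at the start itself. Thus each of the 5 genes held a C/EBP match, which 40.7% of all 32851 windows of this length also do. STAT matches were present in 14.6%, NF-kB matches in 4.51% and TATA matches in 13.6% of all windows. A match is a description of the letters and does not show binding.

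Genes with the most similar pattern were found by the root mean square distance between pool means on the log2 scale, each gene centred on its own mean, over the 4 pools and 11341 tested genes outside the group. Nearest to Lcn2 were Acod1 (0.38), the enzyme that makes itaconate in macrophages, the chemokine genes Ccl3 (0.47) and Cxcl2 (0.49), the interferon-induced GTPase gene Gbp6 (0.50) and the calprotectin gene S100a9 (0.67). Lcn2 itself departed from its own mean by 2.10. Acod1 read 10.0 and 4.0 in irradiated and 34.2 and 12.0 in untreated TNFR KO tumours. Gbp6 read 4.1 and 4.7 in irradiated and 35.3 and 67.8 in untreated TNFR KO tumours. All of these signals were under the level for testing, which Acod1 and Gbp6 passed on their means over all arrays. The distances of Acod1 and Gbp6 therefore depend on the pseudocount. Nearest to Saa3 were Fpr2 (0.23), a formyl peptide receptor gene whose product also binds serum amyloid A, and Mndal (0.36), Slfn9 (0.37), Acadsb (0.41) and Stfa2l1 (0.41). Fpr2 read 78.9 and 30.4 in irradiated and 146 and 138 in untreated TNFR KO tumours, against 613 and 558 in irradiated and 189 and 225 in untreated WT tumours. Nearest to Hp were G0s2 (0.18), Stfa2l1 (0.18) and Slfn4 (0.20), and nearest to Cp were Cilp (0.16), Chil3 (0.20) and Anpep (0.29). Among the members, Saa3 and Hp were the closest pair (0.33) and Lcn2 and Cp the farthest apart (1.89).

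Other acute-phase genes were mostly not readable in these tumours. Of 19 found on the array, 5 were tested, with 0 called in either direction over both treatments by limma and a median host difference of 0.024. Among all tested genes, 18.8% were called lower in TNFR KO hosts and 11.8% higher, so few calls would be looked for among 5 genes. The liver forms Saa1 and Saa2 reached at most 86.1 and 78.6 on any array, and the fibrinogen chain genes Fga, Fgb and Fgg at most 25.5, 22.7 and 9.9. The metallothionein genes Mt1 and Mt2, which encode metal-binding proteins, differed between hosts by -0.17 ± 0.17 and 0.02 ± 0.18, neither called. Serpina3n, a serine protease inhibitor gene, read 80.05 and 183 in irradiated and untreated TNFR KO tumours, against 130.3 and 59.1 in irradiated and untreated WT tumours. Its duplicate arrays lay far apart in TNFR KO tumours, at 45.8 and 114.3 irradiated and 122.0 and 243.5 untreated. Its radiation difference was -1.08 in TNFR KO and 0.96 in WT hosts, so that the TNFR KO value lay 2.04 below the WT value. The complement gene Cfb gave -1.11 in the same measure.

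Of the IL-6 family genes and their signalling genes, 15 were tested. Over both treatments limma called 4 of them lower in TNFR KO hosts and 0 higher, against 18.8% and 11.8% of all genes, with a median of -0.092. In the TNFR KO radiation difference minus that in WT hosts 4 of 15 were past 2-fold lower and 0 higher, against 3.05% and 0.582% of all genes, with a median of -0.47. These 4 were Cebpb (-1.19), Nfkbiz (-1.19), the oncostatin M receptor gene Osmr (-1.19) and the NF-kB cofactor gene Bcl3 (-1.05). The 4 called over both treatments were the receptor gene Lifr (-1.20 ± 0.16), the NF-kB cofactor gene Nfkbiz (-1.07 ± 0.25) and the kinase genes Jak1 (-0.77 ± 0.20) and Jak2 (-0.59 ± 0.16). Stat3, the transcription factor of the pathway, read 3893 and 3481 in irradiated and untreated TNFR KO tumours, against 3883 and 2589 in irradiated and untreated WT tumours (host difference 0.21 ± 0.17, not called). Its feedback inhibitor Socs3 was called higher after irradiation over both hosts (0.98 on the log2 scale, limma adjusted p = 0.0234), as was the ligand gene Lif (0.96). Socs3 read 1455 and 859 in irradiated and untreated TNFR KO tumours, against 1649 and 694 in irradiated and untreated WT tumours. The transcription factor gene Cebpb read 1004 and 804 in irradiated and untreated TNFR KO tumours, against 2008 and 699 in irradiated and untreated WT tumours, 1.24-fold higher after irradiation in TNFR KO and 2.83-fold higher in WT hosts. The related gene Cebpd gave log2 radiation differences of 0.23 in TNFR KO and 0.86 in WT hosts. The receptor subunit gene Il6st differed between hosts by 0.20 ± 0.18 and was not called, and Il6ra, at 13.7 to 35.4 in the pool means, was below the level for testing.

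Receptors and partners of the members, with iron-handling genes, went both ways. By limma 4 of 10 tested were called lower in TNFR KO hosts and 3 higher, against 18.8% and 11.8% of all genes. Their median was -0.065. The lower ones were Fpr2 (-1.84 ± 0.45), the pattern receptor gene Tlr4 (-1.45 ± 0.16), the iron exporter gene Slc40a1 (-0.76 ± 0.20), whose product works with ceruloplasmin, and the transferrin receptor gene Tfrc (-0.69 ± 0.16). The higher ones were Lrp1 (0.98 ± 0.23), a scavenger receptor gene, Slc22a17 (0.63 ± 0.21), which encodes a lipocalin 2 receptor, and Scarb1 (0.57 ± 0.16), a lipoprotein receptor gene. Cd163, the receptor for the haptoglobin and haemoglobin complex, read at most 14.3 as a pool mean and was not tested.

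Markers of cell types that make these proteins also differed between the pools. Hepatocyte markers were all below the level for testing, 6 of 6, with Alb at 43.8 or less on every array. The 11 neutrophil markers on the array summed to 1522 to 1555 in irradiated and 1311 to 1383 in untreated TNFR KO tumours, against 23950 to 24784 in irradiated and 3916 to 4341 in untreated WT tumours. Most of these sums came from S100a8 and S100a9. The other 9 markers summed to 584 to 664 in irradiated and 504 to 589 in untreated TNFR KO tumours, against 1272 to 1282 in irradiated and 539 to 549 in untreated WT tumours, so that without this pair the untreated hosts overlapped. Of 6 tested, limma called 3 lower in TNFR KO hosts over both treatments and 0 higher, against 18.8% and 11.8% of all genes. The 3 were S100a9 (-3.48 ± 0.44), S100a8 (-3.29 ± 0.42) and Csf3r (-0.71 ± 0.24). The granule genes Elane, Mpo, Ltf and Camp, and Cxcr2, were below the level for testing, and no listed marker was at 0. After 20 Gy in TNFR KO hosts 0 of 6 neutrophil markers were counted lower, against 0.617% of all genes. Their median was 0.22, where the 4 members had a median of -1.35. In WT hosts 5 of 6 were counted higher, against 2.57% of all genes, with a median of 1.47 against 1.12 for the members.

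Macrophage markers, 11 of 11 tested, summed to 8919 to 9224 in irradiated and 12757 to 13249 in untreated TNFR KO tumours, against 12084 to 12360 in irradiated and 5822 to 6026 in untreated WT tumours. Their median radiation difference was -0.37 in TNFR KO and 0.82 in WT hosts. In the TNFR KO radiation difference minus that in WT hosts, 10 of 11 were past 2-fold lower, against 3.05% of all genes. Their median in this measure was -1.34. Fibroblast markers gave 4 of 6 past 2-fold lower in that measure, with a median of -1.16. Over both treatments limma called 0 of 11 macrophage markers in either direction. It called 4 of 6 fibroblast markers higher in TNFR KO hosts and 1 lower, against 11.8% and 18.8% of all genes. Between untreated pools 5 of 11 macrophage markers were counted higher in TNFR KO and 0 lower, against 2.26% and 6.46%. Keratinocyte markers were high in the untreated TNFR KO pool, where the list of 6 summed to 3187 to 3418, against 342 to 424 in untreated WT tumours. In the irradiated pools the keratinocyte sums were 690.0 to 779 in TNFR KO and 530.3 to 647 in WT tumours. After 20 Gy 4 of 5 tested keratinocyte markers were counted lower in TNFR KO hosts, against 0.617% of all genes. Their median there was -1.53, and their median TNFR KO radiation difference minus that in WT hosts was -2.60. Over both treatments limma called 3 of 5 higher in TNFR KO hosts and 0 lower, with a median host difference of 1.32. The part of these cell types in the values of the members was not tested.

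**Figure D5:**
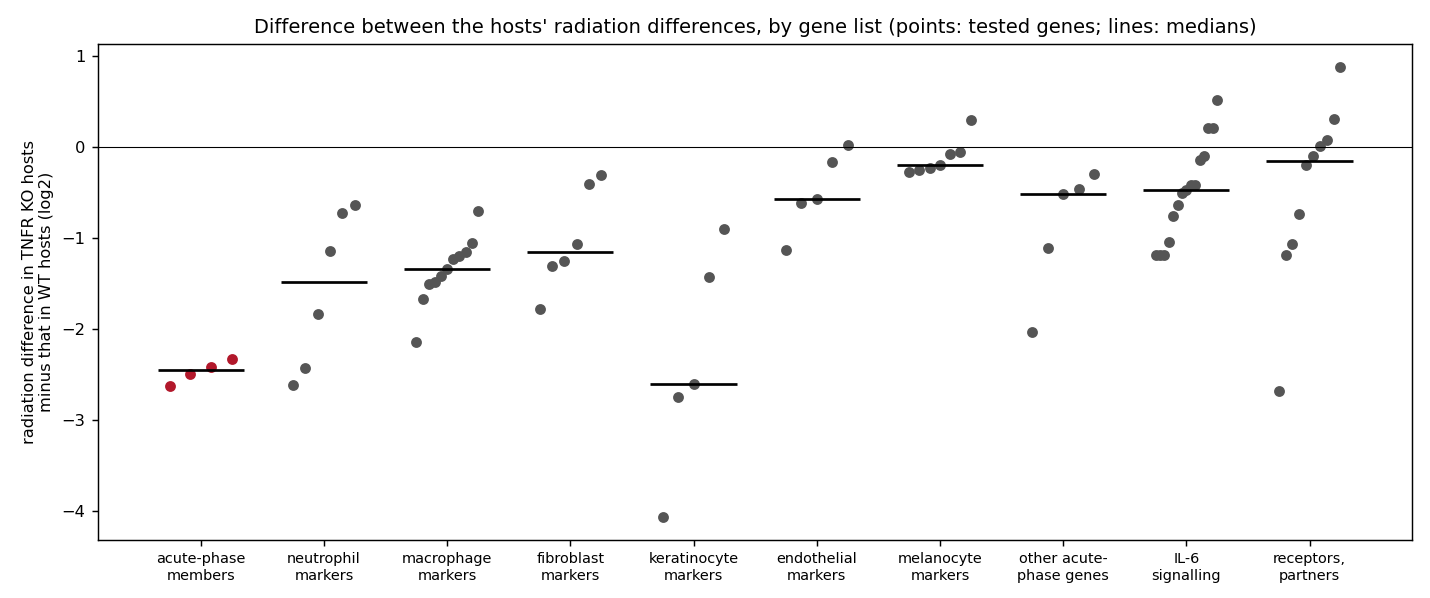
Radiation difference in TNFR KO hosts minus that in WT hosts (log2) for the tested genes of each list (points) with list medians (lines). The 4 acute-phase members lie between -2.62 and -2.33, the macrophage and neutrophil medians are -1.34 and -1.49, the keratinocyte median is -2.60, and the melanocyte median is -0.20.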

How the data were processed

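RNA of whole tumours was measured on 8 arrays, 2 for each of 4 pools, from 6 µg of total RNA per labelling, per the labels' protocols. Signal intensity was deposited untransformed; the submitters' processing notes name MAS5. Trimmed means (2% from each end) were 500.0 on all 8 arrays, so the deposited signal had been scaled alike. The number of arrays limits the precision.

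Signals were transformed as log2(signal + 16), so differences of dim genes depend on the pseudocount. Probe sets were named through the platform annotation: 34945 named 1 gene, 932 several and 9160 none, with 64 controls. Genes were tested if their mean log2 signal reached the median of non-control probe sets (6.41), which 11345 of 18193 did. Additive models of host and treatment were fitted to the 4 pool means with limma 3.58.1 in R 4.3.3 (1 residual and 8.97 prior degrees of freedom), two-sided, at a Benjamini-Hochberg adjusted p under 0.05 over all tested genes. The residual is the difference between the hosts' radiation differences, and no spread between animals enters. Duplicates were averaged first. In simulated data for the host difference on 11345 genes, 84% of 2-fold and 100% of 4-fold changes were recovered with 3 false calls. The simulated host changes were equal in both treatments, with independent noise and no preparation effect. These rates therefore do not carry over to the host calls above. Promoter windows came from RefSeq (GRCm38.p6). Figures used matplotlib 3.10.9.

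The members and lists were chosen with earlier results of these data known. Genes named beside the members were Stat3, Socs3, Cebpb, Cebpd, Il6st, Il6ra, Slc22a17 and Cd163, the up to 4 largest calls per list and direction, and the 5 or 3 nearest patterns per member. Other genes printed from the lists were chosen after their values were seen. Alternatives were 2 normalizations, other pseudocounts (none, 64), filters (none, 75th percentile), the mean of probe sets, limma with trend, fits on 8 arrays, other fold thresholds and leaving out each array. Same-numbered arrays of different pools did not deviate together (correlations of -0.031 to 0.053), so replicate numbers were not used as pairs.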

Additional observations from a re-analysis of the deposited data

Results flagged for a closer look

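The difference between the radiation differences of TNFR KO and WT hosts was flagged for Lcn2 (-2.42), Saa3 (-2.62), Hp (-2.33) and Cp (-2.49) on the log2 scale. For each, both irradiated arrays read below both untreated arrays in TNFR KO hosts and above them in WT hosts. That pattern, at any size, was shown by 6.83% of all tested genes, and the reverse by 6.18%. With 1 pool per group the difference between radiation differences was not tested.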

How the results depend on the processing

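Each alternative keeps the same 4 pools, so none of them measures spread between animals, and the low signals of Ptx3, Il6 and Orm1 limit what can be read of them. Of the 3 members called lower in TNFR KO hosts over both treatments, 1 remained by count with quantile normalization, 0 with no filter on low signals, and 1 to 2 when any 1 array was left out. Hp was the exception in direction over both hosts: its radiation difference of 0.13 became -0.00958 with arrays centred on the median and ranged over -0.0186 to 0.288 without 1 array, never called. In the same comparison 1 member, Cp, was called lower with median centring (-0.95), with the filter at the 75th percentile (-0.81) and with limma's trend (-0.81), against 0 otherwise. These Cp calls average a fall in TNFR KO hosts and a smaller rise in WT hosts. In TNFR KO hosts the count of members lower after 20 Gy was 2 with a pseudocount of 64, 1 at 4-fold, 3 with the mean of probe sets or the 75th percentile filter, and 3 to 4 without 1 array. In WT hosts the count higher was 1 with the 75th percentile filter, which drops Hp, 0 at 4-fold, and 1 to 3 without 1 array. Between untreated pools 1 member, Cp, was higher in TNFR KO at 1.5-fold. With the mean of its probe sets, Cp gave -0.99 in TNFR KO hosts after 20 Gy. Replicate numbers did not pair the arrays, and with a replicate block on the 8 arrays the adjusted p of the host difference (limma) was 0.00094 for Lcn2, 0.0292 for Saa3 and 0.0547 for Hp, against 0.000301, 0.018 and 0.0376 without it. Over all tested genes, host calls ranged over 0 to 2980 lower (2137 as reported) and 0 to 3473 higher (1335), and radiation calls over both hosts over 0 to 1411 lower (30) and 0 to 1065 higher (146). The ranges of single-pool counts that follow are all at 2-fold and leave out the other fold thresholds. Among single-pool counts, those untreated ranged over 410 to 1149 lower and 92 to 628 higher, and those irradiated over 456 to 1125 and 40 to 364. TNFR KO radiation counts ranged over 15 to 221 and 57 to 427, and WT radiation counts over 7 to 123 and 99 to 770. The difference between the hosts' radiation differences gave 90 to 1053 and 10 to 457. Median centring shifted the median of all genes by -0.26 for WT radiation, -0.20 for the untreated host difference and -0.14 for radiation over both hosts. The shift was 0.23 for the difference between the hosts' radiation differences. Median centring made 80.8% of host calls lower (61.5% as reported) and 88.8% of untreated ones (74.1%). Shares lower were 46.1% for WT radiation (9.32%) and 48.6% for radiation over both hosts (17%). The share was 53.8% for the difference between the hosts' radiation differences (84%). Quantile normalization left only 0 lower and 2 higher calls for radiation over both hosts, so its share of 0% says little. It made the share 69% for the difference between the hosts' radiation differences.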
